A study of Mus musculus with 4 samples.

Results

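The 34 genes described here carry glucose into the cell, run glycolysis and lactate export, form the pentose phosphate pathway, or belong to the response to low oxygen. They were chosen by symbol as a pathway list, with earlier results of these data known. Their counts below are therefore no independent test of the list. All 34 were found among the 23283 gene symbols with a value in each library. RNA sequencing was done on Th2 cells, the CD4 helper T cells that make IL-4, IL-5 and IL-13, grown from splenic CD4 T cells of C57BL/6 mice. The cells were Menin KO or wild type (WT). Menin, encoded by Men1, is a component of Trithorax group complexes that act on chromatin. There were 4 groups with 1 library each. For KO 5-day and WT 5-day, Th2 culture lasted 5 days in medium holding 15 ng/ml IL-2 plus 10 ng/ml IL-4. KO 3-week and WT 3-week began in the same way, were rested for 2 days with no cytokine added, and were then restimulated for 5 days by plate-bound anti-TCR antibody in medium with IL-2 and with anti-IL-4 antibody. The labelled steps sum to 12 days, and the sources used here do not say what filled the rest of the named 3 weeks. The way Menin was deleted, the age and number of the mice and any pooling are not given in those sources either. With 1 library per group no difference below has a replicate check, and no test between groups was possible.

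Glycolysis splits glucose into pyruvate, and activated T cells turn much of that pyruvate into lactate, which they export. The pentose phosphate pathway branches off glucose phosphate to supply NADPH and the ribose of nucleotides. HIF-1 is a transcription factor whose subunit HIF-1 alpha, encoded by Hif1a, is marked for destruction by oxygen-dependent prolyl hydroxylases (Egln1, Egln3). When stable, it activates many glycolytic genes. In T cells, receptor signals, MYC and HIF-1 are known to raise the same enzymes.

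The promoters of the members that stood lowest in KO are shown because HIF-1 and MYC act through short motifs there. The 3 lowest KO to WT ratios in the 3-week culture were those of Slc16a1, Hk2 and Ldhb. The sequences are the 250 bases before each RefSeq transcript start (GRCm38.p6), 5′ to 3′ on the gene's strand, and capitals mark the HIF core letters ACGTG or GCGTG on either strand and the E-box CACGTG, which contains ACGTG.
Slc16a1, chr3:104638414-104638663, plus strand: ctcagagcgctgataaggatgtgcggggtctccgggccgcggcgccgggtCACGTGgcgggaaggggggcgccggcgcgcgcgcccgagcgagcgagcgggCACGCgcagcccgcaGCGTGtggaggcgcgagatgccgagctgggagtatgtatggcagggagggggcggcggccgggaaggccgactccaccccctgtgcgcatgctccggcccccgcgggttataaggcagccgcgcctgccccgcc
Hk2, chr6:82774455-82774704, minus strand: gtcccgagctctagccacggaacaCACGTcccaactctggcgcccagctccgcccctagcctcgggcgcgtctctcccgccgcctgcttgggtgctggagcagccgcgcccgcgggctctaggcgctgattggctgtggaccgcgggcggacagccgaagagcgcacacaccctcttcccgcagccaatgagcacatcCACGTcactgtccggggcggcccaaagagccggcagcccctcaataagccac
Ldhb, chr6:142507958-142508207, minus strand: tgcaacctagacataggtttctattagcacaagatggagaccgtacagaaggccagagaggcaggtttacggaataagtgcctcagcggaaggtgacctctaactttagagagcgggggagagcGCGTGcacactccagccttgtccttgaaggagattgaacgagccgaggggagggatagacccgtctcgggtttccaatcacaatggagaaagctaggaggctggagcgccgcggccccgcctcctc
The Slc16a1 stretch holds 4 HIF core matches, of which 2 are the overlapping readings of 1 E-box. Hk2 has 2 matches and Ldhb has 1.

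Over the full windows of the RefSeq promoter table, which run 50 bases past the start, 29 of 32 members with an entry (90.6%) held a HIF core match in at least 1 window and 6 of 32 (18.8%) held an E-box. Among all 27025 genes in the table, counted in the same way over their windows, the shares were 46.7% and 8.09%. Among the 7774 compared genes that had an entry they were 69.1% and 12.2%. Median GC content was 61% in the members' windows, against 60.7% for the compared genes and 52.7% for all genes in the table. Of the 10 members looked up that were at least 2-fold lower in KO at 3 weeks, 9 had a HIF core match, as did 20 of the 21 other compared members with an entry. A match to these letters is a description of the sequence and says nothing of binding. The table has no entry for Slc2a3. Pgm2 was left out because this symbol names different phosphoglucomutase genes in different annotations, and for the same reason no position is given for it.

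The libraries had inferred depths of 20.7 to 23.6 M reads, read from the spacing of low FPKM values (FPKM counts fragments per unit of transcript length and of sequencing depth). Men1 stood at 10.3 FPKM in KO 5-day against 32.8 FPKM in WT 5-day, and at 5.88 FPKM in KO 3-week against 25.4 FPKM in WT 3-week, which goes with the labels. The 5 T cell markers were present in every library, with summed levels of 1490.2 FPKM in KO 5-day, 1425 in WT 5-day, 1660.3 in KO 3-week and 1150.1 in WT 3-week. The summed Th2 markers Gata3, Il4, Il5 and Il13 were 85.1 FPKM in KO 5-day, 81.8 in WT 5-day, 93.8 in KO 3-week and 316 in WT 3-week. The 5 myeloid markers summed to 10.7 FPKM in KO 5-day, 4.75 in WT 5-day, 17.97 in KO 3-week and 3.45 in WT 3-week. Most of the 3-week sums was Cd68, at 12.9 FPKM in KO 3-week and 3.25 FPKM in WT 3-week. Itgam stood at 4.75 FPKM in KO 3-week and 0.0283 FPKM in WT 3-week, while Csf1r was at or below 0.0130 FPKM throughout. The 3 NK cell markers summed to 1.75 FPKM in KO 5-day against 0.119 in WT 5-day, and to 2.10 FPKM in KO 3-week against 0.0174 in WT 3-week. Over the 4 libraries the 4 B cell markers summed to at most 1.09 FPKM and the 2 CD8 T cell markers to at most 5.70 FPKM. The 5 erythroid markers summed to 3.90 FPKM in KO 5-day, 12.4 in WT 5-day, 1.80 in KO 3-week and 1.04 in WT 3-week. Of the 4 stromal markers, Pecam1, which T cells can also express, made up nearly all of the sum (28.03 FPKM in KO 3-week, 40.04 FPKM in WT 3-week). The part of these markers in the results below was not tested.

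Most members carried less RNA in KO than in WT cells, by a little after 5 days and by more in the 3-week culture. Summed over all 34 members, FPKM was 3496 in KO 5-day and 4089 in WT 5-day, so that KO stood at 85.5% of WT. The 3-week sums were 2682 in KO and 3848 in WT, or 69.7%. These sums are led by a few abundant enzymes, Aldoa, Ldha, Pgk1 and Tpi1 among them. In bulk RNA, fewer cells that express a gene and less of its RNA per cell cannot be told apart.

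The members were also read gene by gene. A ratio is given as log2((KO + 1)/(WT + 1)) of the FPKM values, which makes differences of low genes look smaller, and at least 2-fold means a value of 1 or more in size. The 33 members with a mean of at least 1 FPKM over the 4 libraries were compared, among 10973 genes in all. At 5 days 29 of the 33 lay below 0 and 4 above, where 53.6% of all compared genes lay below 0. The median was -0.26 against -0.021 over all compared genes. Only Ankrd37 was at least 2-fold lower (1 of 33, where 0.820% of all compared genes were), and 0 of 33 were at least 2-fold higher (2.77% of all). At 3 weeks 26 lay below 0 (55.8% of all compared genes) and 7 above, with a median of -0.52 against -0.084. The count at least 2-fold lower was 11 of 33, or 33.3%, where 8.19% of all compared genes were, and 0 of 33 were at least 2-fold higher, where 7.97% of all were. The 11 were Hk2, Pfkl, Pfkp and Tpi1 of upper glycolysis, Ldha, Ldhb and Slc16a1 of lactate production and transport, Bnip3, Egln3 and Ankrd37 of the HIF response, and Pgm2. Bnip3, Egln3 and Ankrd37 did not reach 2-fold under median-of-ratios and upper-quartile scaling, which left 8 members. With a pseudocount of 5 the count was 7. Of all 10973 compared genes, those at least 2-fold lower also became fewer. They were 711 and 680 under the 2 scalings and 440 with a pseudocount of 5, against 899 as deposited with a pseudocount of 1. The counting interval of the KO to WT ratio lay wholly below 1 for 23 of 33 members at 5 days and 25 at 3 weeks, and wholly above 1 for 3 and 4 of them. The same was not counted over all compared genes, so these counts do not set the members apart. Intervals of abundant genes are narrow, and that of Hif1a excluded WT at 3 weeks with KO at 103% of WT.

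**Figure D1:**
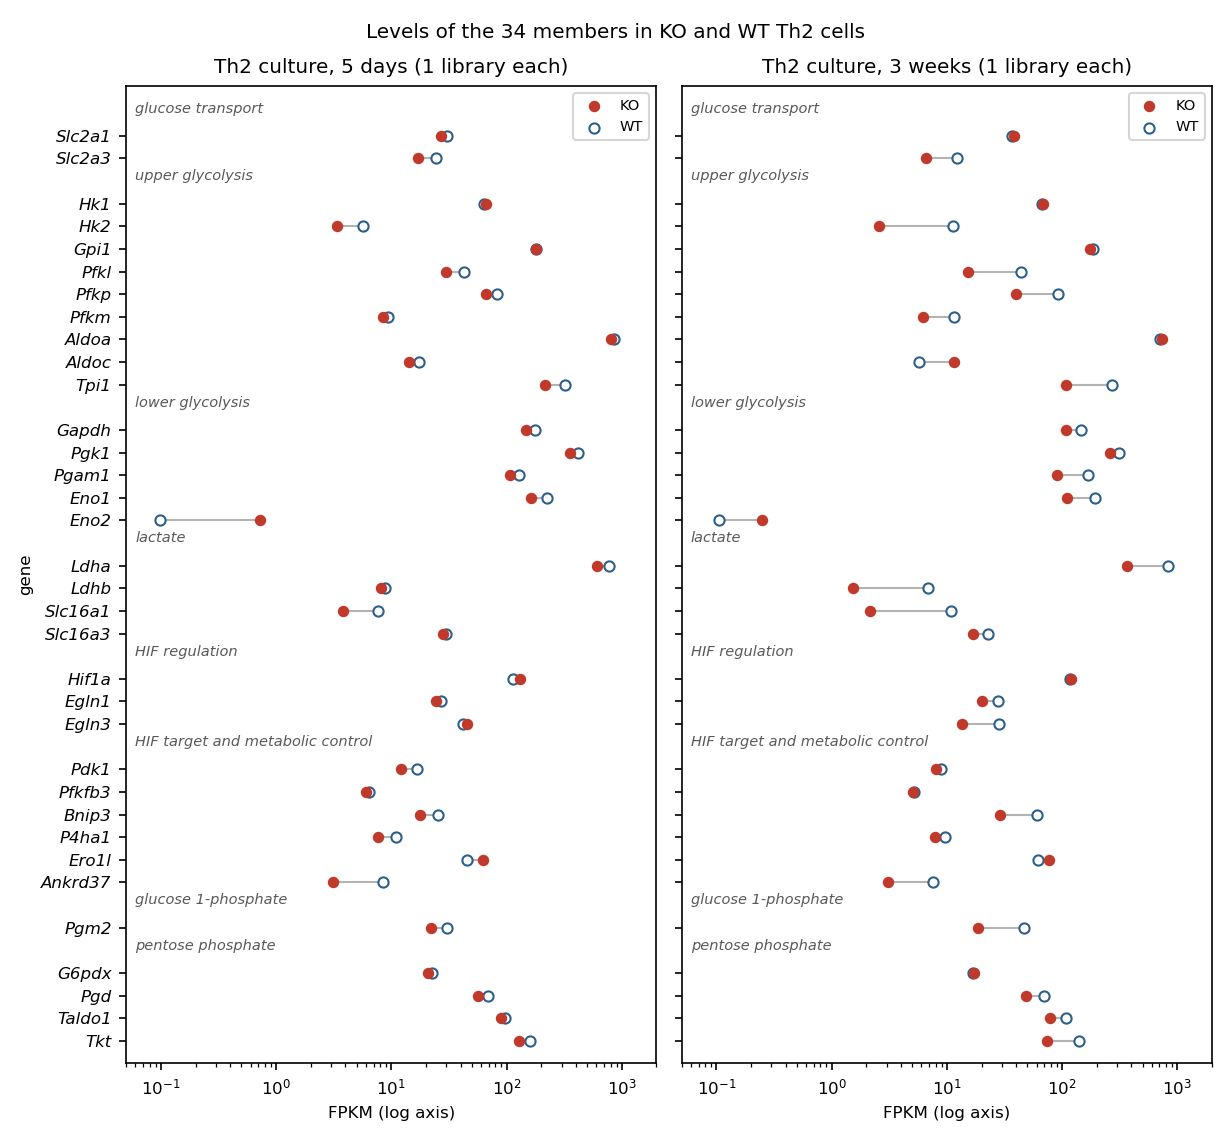
FPKM of each of the 34 members on a log axis, after 5 days (left panel) and in the 3-week culture (right panel), with filled red points for KO and open blue points for WT, 1 library each, grouped by role. The gap between the points is widest to the left for Slc16a1, Ldhb and Hk2 at 3 weeks, while Hk1, Gpi1, Aldoa and Hif1a nearly coincide.

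**Figure D2:**
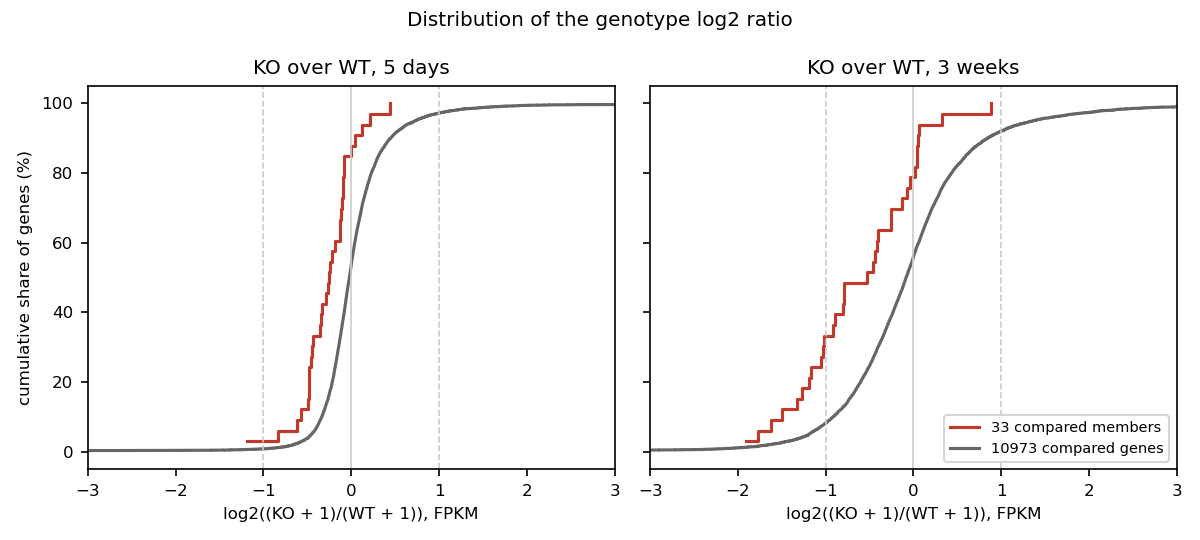
Cumulative share of genes (%) against the log2 ratio of KO over WT, for the 33 compared members (red) and all 10973 compared genes (grey), at 5 days (left) and 3 weeks (right), with dashed lines at 2-fold. The members' curve lies to the left of the grey curve in both panels, with medians of -0.26 and -0.52.

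Glucose enters T cells through the transporters encoded by Slc2a1 (GLUT1) and Slc2a3 (GLUT3), and these differed from each other. Slc2a1 (chr4:119108711-119137983, GRCm38, chromosome 4) stood at 26.96 FPKM in KO 5-day against 30.7 in WT 5-day, and at 38.5 FPKM in KO 3-week against 36.7 in WT 3-week. At 3 weeks KO was 105% of WT (counting interval 99.1% to 111%), an interval that included the WT level. Slc2a3 stood at 17.1 FPKM in KO 5-day against 24.2 in WT 5-day, and at 6.64 FPKM in KO 3-week against 12.2 in WT 3-week, 54.4% of WT (counting interval 48.9% to 60.3%). KO was the lower library at both times. Counting intervals here cover only the reads that an FPKM value implies, not the variation between cultures or mice. Slc2a1 took 85.3% of the summed transporter FPKM in KO 3-week and 75.1% in WT 3-week.

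Hexokinases trap glucose in the cell by adding a phosphate. Hk1, the housekeeping isoenzyme, stood at 66.2 FPKM in KO 5-day against 64.2 in WT 5-day and at 68.8 FPKM in KO 3-week against 66.5 in WT 3-week, which is 103% and 104% of WT. Hk2, the inducible isoenzyme (chr6:82725025-82774454), stood at 3.38 FPKM in KO 5-day against 5.71 in WT 5-day, 59.2% of WT (counting interval 51.03% to 68.5%), and at 2.58 FPKM in KO 3-week against 11.2 in WT 3-week, 22.96% of WT (counting interval 19.8% to 26.6%). Its log2 ratio was -0.62 at 5 days and -1.77 at 3 weeks. WT 3-week held the highest Hk2 level of the 4 libraries and KO 3-week the lowest. Because Hk1 was the more abundant, the hexokinase sum differed little, at 71.4 FPKM in KO 3-week and 77.7 FPKM in WT 3-week, but Hk2 made up 3.62% of it in KO 3-week and 14.5% in WT 3-week. Gpi1, which converts glucose phosphate to fructose phosphate, stood at 181 FPKM in KO 5-day against 181 in WT 5-day and at 175 FPKM in KO 3-week against 184 in WT 3-week, log2 ratios of -0.0057 and -0.079 that turned to 0.02 and 0.03 with median-of-ratios scaling.

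Phosphofructokinase catalyses the committed step of glycolysis, and all 3 of its isoenzyme genes were lower in KO at both times. Pfkl, the liver type, stood at 30.1 FPKM in KO 5-day against 42.3 in WT 5-day, and at 15.1 FPKM in KO 3-week against 44.3 in WT 3-week, 34.1% of WT (counting interval 31.9% to 36.4%). Pfkp, the platelet type and the most abundant of the 3, stood at 65.7 FPKM in KO 5-day against 82.8 in WT 5-day, and at 40.1 FPKM in KO 3-week against 91.7 in WT 3-week, 43.8% of WT (counting interval 41.9% to 45.8%). Pfkm, the muscle type, stood at 8.47 FPKM in KO 5-day against 9.36 in WT 5-day, and at 6.22 FPKM in KO 3-week against 11.6 in WT 3-week. The 5-day counting interval of Pfkm spanned WT (79.8% to 103%). Summed over the 3 genes FPKM was 104 in KO 5-day against 134 in WT 5-day, and 61.5 in KO 3-week against 148 in WT 3-week, 77.5% and 41.6% of WT. Pfkl made up 24.6% of the sum in KO 3-week and 30.03% in WT 3-week, while Pfkp took 65.3% and 62.1% in the same libraries. Exons of Pfkp and Pfkm overlap genes on the opposite strand in GENCODE M21 (Pitrm1 and Senp1), and use of strand in the counting is not stated.

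The aldolases split the sugar into triose phosphates, and unlike the phosphofructokinase genes, both aldolase genes lay at or above WT at 3 weeks. Aldoa, the most abundant member in 3 of the 4 libraries, stood at 813 FPKM in KO 5-day against 861 in WT 5-day and at 734 FPKM in KO 3-week against 713 in WT 3-week. Those are 94.4% and 103% of WT. Aldoc, best known from brain, stood at 14.4 FPKM in KO 5-day against 17.4 in WT 5-day, 82.3% of WT (counting interval 74.1% to 91.6%), and at 11.4 FPKM in KO 3-week against 5.71 in WT 3-week, 199.96% of WT (counting interval 172% to 233%). It was the highest ratio among the 33 compared members at 3 weeks (0.89, just under 2-fold on the log2 scale and 1.01 with upper-quartile scaling), and the low WT 3-week library set it apart. Tpi1, which interconverts the triose phosphates (chr6:124810586-124814296), stood at 215 FPKM in KO 5-day against 320.5 in WT 5-day, 66.99% of WT (counting interval 64.6% to 69.5%), and at 108 FPKM in KO 3-week against 273 in WT 3-week, 39.7% of WT (counting interval 37.9% to 41.6%). Spsb2 overlaps it on the opposite strand.

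The enzymes of lower glycolysis, which yield ATP and pyruvate, were lower in KO at both times without reaching 2-fold. That was 0 of 4 compared, where 0.820% of all compared genes were at least 2-fold lower at 5 days and 8.19% at 3 weeks. Pgam1, phosphoglycerate mutase, stood at 108 FPKM in KO 5-day against 129 in WT 5-day and at 89.8 FPKM in KO 3-week against 168 in WT 3-week, with a 3-week log2 ratio of -0.89. Eno1, the main enolase, stood at 162 FPKM in KO 5-day against 226 in WT 5-day and at 111 FPKM in KO 3-week against 192 in WT 3-week, log2 ratios of -0.48 and -0.79. Pgk1, the ATP-yielding phosphoglycerate kinase, was nearer to WT, at 357 FPKM in KO 5-day against 417 in WT 5-day and at 261 FPKM in KO 3-week against 312 in WT 3-week. Gapdh, often used as a reference transcript, was 84.4% of WT at 5 days and 74.7% at 3 weeks. Its level of 109 FPKM in KO 3-week against 146 in WT 3-week is uncertain, because 72 other genes in GENCODE M21 match its transcript at 95% identity or more over at least 50% of its length, 69 of them pseudogenes. Eno1 has 4 such copies, Bnip3 4, Pgk1 and Ldha 2 each and Ldhb 1, so their values are uncertain too. Eno2, the neuronal enolase, was not compared, at 0.723 FPKM in KO 5-day against 0.0985 in WT 5-day and at 0.247 FPKM in KO 3-week against 0.104 in WT 3-week, which imply 36, 4, 12 and 5 reads in that order.

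Of the role groups with several genes, lactate production and transport had the lowest median log2 ratio in the 3-week culture (-1.41, 4 genes). At least 2-fold lower in KO were 3 of the 4, where 8.19% of all compared genes were. With a pseudocount of 5, Ldhb, 1 of these 3, was at -0.85 and did not reach 2-fold. Ldha, the muscle-type lactate dehydrogenase subunit that dominates in activated T cells (chr7:46841475-46855627), stood at 611 FPKM in KO 5-day against 781 in WT 5-day, 78.3% of WT (counting interval 76.8% to 79.9%). At 3 weeks it stood at 363 FPKM in KO against 832 in WT, 43.6% of WT (counting interval 42.7% to 44.6%). Ldhb, the heart-type subunit (chr6:142490249-142507957), stood at 8.08 FPKM in KO 5-day against 8.76 in WT 5-day, where the counting interval spanned WT, and at 1.53 FPKM in KO 3-week against 6.79 in WT 3-week, 22.5% of WT (counting interval 15.2% to 32.1%). The KO 3-week level was the one that stood apart, and it implies about 36 reads. Ldha made up most of the summed Ldha and Ldhb FPKM in each library, 99.6% in KO 3-week and 99.2% in WT 3-week. Slc16a1, the gene of the lactate transporter MCT1 (chr3:104638668-104658462), had the lowest ratio of all compared members at 3 weeks. It stood at 3.81 FPKM in KO 5-day against 7.61 in WT 5-day, 50.1% of WT (counting interval 43.99% to 57.02%), and at 2.15 FPKM in KO 3-week against 10.9 in WT 3-week, 19.8% of WT (counting interval 16.9% to 23.1%). Slc16a3, the gene of the exporter MCT4, differed less, at 27.9 FPKM in KO 5-day against 29.8 in WT 5-day and at 16.96 FPKM in KO 3-week against 22.8 in WT 3-week. Slc16a1 therefore made up 11.3% of the FPKM of the 2 transporters in KO 3-week and 32.3% in WT 3-week.

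The pentose phosphate members were lower in KO at 5 days in 4 of 4 cases and at 3 weeks in 3 of 4, none by 2-fold. Of all compared genes 53.6% and 55.8% were lower in KO at these times. G6pdx, the first enzyme of the oxidative branch, stood at 20.9 FPKM in KO 5-day against 22.6 in WT 5-day and at 17.2 FPKM in KO 3-week against 16.95 in WT 3-week, with counting intervals of 84.9% to 100.1% and 92.7% to 111% of WT that both included WT. Pgd, the next oxidative enzyme, stood at 56.5 FPKM in KO 5-day against 68.95 in WT 5-day and at 48.2 FPKM in KO 3-week against 69.8 in WT 3-week. Tkt, the transketolase of the non-oxidative branch, had the lowest ratio of the 4, at 127 FPKM in KO 5-day against 161 in WT 5-day and at 74.3 FPKM in KO 3-week against 141 in WT 3-week, 52.8% of WT (counting interval 51% to 54.6%). Taldo1, the transaldolase, stood at 90.2 FPKM in KO 5-day against 96.5 in WT 5-day and at 77.9 FPKM in KO 3-week against 107 in WT 3-week. The order at 3 weeks thus ran from Tkt, the furthest below WT, through Pgd and Taldo1 to G6pdx at the WT level. Pgm2, whose symbol names different phosphoglucomutase genes in different annotations, stood at 22.2 FPKM in KO 5-day against 30.5 in WT 5-day. At 3 weeks it stood at 18.7 FPKM in KO against 46.5 in WT, 40.1% of WT.

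Most of the glycolytic enzymes were lower in KO, but Hif1a, like Hk1, was slightly higher at both times. It stood at 132 FPKM in KO 5-day against 113 in WT 5-day, 116% of WT (counting interval 113% to 119%), and at 121 FPKM in KO 3-week against 117 in WT 3-week, 103% of WT (counting interval 100.4% to 106%). RNA levels do not show how much HIF-1 alpha protein was present. Egln1, the main prolyl hydroxylase that targets it, stood at 24.5 FPKM in KO 5-day against 26.9 in WT 5-day and at 20.2 FPKM in KO 3-week against 27.8 in WT 3-week. Egln3, a hydroxylase that HIF itself induces, was on opposite sides of WT at the 2 times. It stood at 45.5 FPKM in KO 5-day against 41.8 in WT 5-day, 109% of WT (counting interval 103% to 115%), and at 13.5 FPKM in KO 3-week against 28.3 in WT 3-week, 47.7% of WT (counting interval 43.7% to 52.2%). KO 3-week was the low library, and its log2 ratio of -1.01 lay at the 2-fold rule, at -0.91 with median-of-ratios scaling.

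Of the 6 HIF target and metabolic control members, 5 lay below 0 at each time and 1, Ero1l, lay above. Of all compared genes 53.6% lay below 0 at 5 days and 55.8% at 3 weeks. Ankrd37, an ankyrin repeat gene known as a HIF target in human cells, was the member at least 2-fold lower at both times, where 0.401% of compared genes were. With median-of-ratios scaling its 3-week log2 ratio was -0.97 (-1.06 as deposited), and with a pseudocount of 5 it was -0.72 at 5 days (-1.19 with 1), so both calls lie near the rule. It stood at 3.13 FPKM in KO 5-day against 8.40 in WT 5-day, 37.3% of WT (counting interval 26.7% to 52.4%), and at 3.10 FPKM in KO 3-week against 7.53 in WT 3-week, 41.1% of WT (counting interval 28.7% to 57.3%). The KO levels were alike at both times, and so were the WT levels, but its exons overlap 2 genes on the opposite strand (Lrp2bp and Ufsp2). Bnip3, a gene of mitochondrial clearance, stood at 17.7 FPKM in KO 5-day against 25.3 in WT 5-day and at 28.9 FPKM in KO 3-week against 60.3 in WT 3-week, 47.9% of WT (counting interval 43.6% to 52.7%). Its level was higher in the 3-week than in the 5-day culture in both genotypes. Ero1l, an oxidase of protein folding in the endoplasmic reticulum, was the member higher in KO at both times by the widest margin, at 62.3 FPKM in KO 5-day against 45.5 in WT 5-day, 137% of WT, and at 77.2 FPKM in KO 3-week against 61.5 in WT 3-week, 126%. Pdk1, which shuts pyruvate out of the mitochondrial cycle, was nearer to WT at 3 weeks than at 5 days, at 12.1 FPKM in KO 5-day against 16.8 in WT 5-day and at 8.05 FPKM in KO 3-week against 8.88 in WT 3-week. P4ha1, a collagen prolyl hydroxylase subunit, stood at 7.66 FPKM in KO 5-day against 10.9 in WT 5-day and at 7.94 FPKM in KO 3-week against 9.68 in WT 3-week. Pfkfb3, which makes an activator of phosphofructokinase, had counting intervals that included WT at both times, at 6.05 FPKM in KO 5-day against 6.45 in WT 5-day and at 5.06 FPKM in KO 3-week against 5.21 in WT 3-week.

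The genotype contrasts at the 2 times share no library, so their values can be set side by side. Of the 33 compared members 25 were lower in KO at both times and 3 (Hk1, Hif1a and Ero1l) were higher at both, which was not counted over all compared genes. The ratio was lower at 3 weeks than at 5 days in 24 of 33, where it was lower in 57.4% of all compared genes. The difference between the contrasts had a median of -0.31 on the log2 scale, against -0.079 over all compared genes. None of the 33 reached 4-fold in this difference (0 lower, 0 higher, against 0.784% and 1.26% of all compared genes). At 2-fold it was lower in 5 members, Ldhb (-1.52), Hk2 (-1.16), Egln3 (-1.13), Slc16a1 (-1.07) and Pfkl (-1.01), and higher in 1, Aldoc (1.15), against 4.70% and 4.53% of all compared genes. These differences were not tested.

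**Figure D3:**
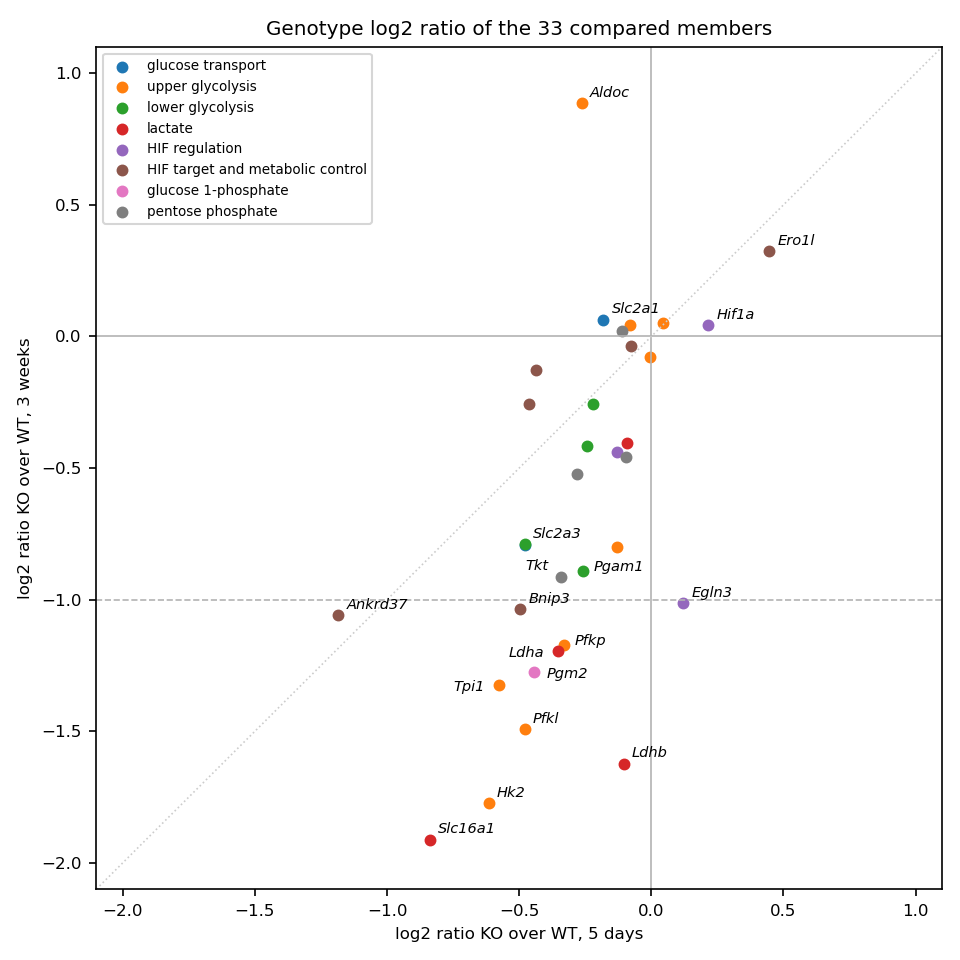
Log2 ratio of KO over WT at 5 days (x axis) against 3 weeks (y axis) for the 33 compared members, coloured by role, with the dotted line where both are equal and the dashed line at 2-fold lower at 3 weeks. Most points lie below the dotted line, Slc16a1 and Hk2 lie lowest, the points of Slc2a3 and Eno1 coincide, and Aldoc stands alone at the top with 0.89 at 3 weeks.

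The same libraries, read by culture, show where the levels lay in each genotype. These comparisons share libraries with the ones above and the cultures also differed in restimulation and cytokines. In KO cells 28 of 33 members were lower in the 3-week than in the 5-day culture, where 56.8% of all compared genes were. The median was -0.29 against -0.063 over all compared genes. At least 2-fold lower were 3 members (4.39% of all compared genes), Ldhb (-1.84), Egln3 (-1.68) and Slc2a3 (-1.25), and 0 were at least 2-fold higher (4.35% of all). In WT cells 16 were lower (47.8% of all compared genes) and 17 higher, with a median of 0.017 against 0.014. In WT, Bnip3 (1.22) was at least 2-fold higher (3.03% of all compared genes) and Aldoc (-1.46) at least 2-fold lower (2.83% of all). KO 3-week held the lowest level of the 4 libraries for 24 of the 33 members, where the same was true of 42.9% of all compared genes. WT 3-week held the highest level for 13 members, WT 5-day for 15, KO 3-week for 3 and KO 5-day for 2. The highest library was not counted over all compared genes.

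Other genes of the same pathways, taken from lists made by function, did not all follow the members. These lists, and those of regulators and cell cycle genes below, were also chosen with earlier results of these data known. At 5 days 1 gene of the further HIF list, Bhlhe40, and 0 genes of the other 5 pathway lists were at least 2-fold higher in KO. At least 2-fold lower were 0 genes of any list. Of all compared genes only 2.77% were at least 2-fold higher at 5 days and 0.820% lower, so few were to be found in lists this short. At 3 weeks 8.19% of all compared genes were at least 2-fold lower in KO and 7.97% higher. Among further glycolysis genes 2 of 16 were lower in KO by 2-fold or more and 0 higher (median -0.016). The lower genes were Galm and Adpgk, an ADP-dependent glucokinase. Galm stood at 0.339 FPKM in KO 3-week and 5.70 FPKM in WT 3-week, and Adpgk at 6.55 FPKM in KO 3-week and 17.7 FPKM in WT 3-week. Pkm, the pyruvate kinase gene listed under an older symbol, stood at 898 FPKM in KO 5-day against 949 in WT 5-day and at 579.8 FPKM in KO 3-week against 832 in WT 3-week. Among further pentose phosphate genes 1 of 9 were lower in KO by 2-fold or more and 0 higher (median -0.0060), the lower gene being Prps1, which passes ribose on to nucleotide synthesis, at 6.75 FPKM in KO 3-week and 20.8 FPKM in WT 3-week. Among genes of pyruvate entry into mitochondria, its control and pyruvate use there, 2 of 12 were lower in KO by 2-fold or more and 1 higher (median -0.56). Of the kinase genes related to Pdk1, Pdk3 and Pdk2 lay on opposite sides of WT. Pdk3 stood at 8.71 FPKM in KO 3-week and 21.2 FPKM in WT 3-week, and Pdk2 at 8.43 FPKM in KO 3-week and 2.81 FPKM in WT 3-week. The other lower gene was Pcx, pyruvate carboxylase, at 1.59 FPKM in KO 3-week and 4.64 FPKM in WT 3-week. Among serine and glycogen branch genes 3 of 15 were lower in KO by 2-fold or more and 1 higher (median -0.55), the lower genes being Shmt1, of serine and folate metabolism, at 4.07 FPKM in KO 3-week and 20.8 FPKM in WT 3-week, Psat1, of serine synthesis, at 49.6 FPKM in KO 3-week and 113 FPKM in WT 3-week, and Gpd2, of the glycerol phosphate shuttle, at 6.33 FPKM in KO 3-week and 14.3 FPKM in WT 3-week. The higher gene was Pygl, a glycogen phosphorylase, at 1.64 FPKM in KO 3-week and 0.145 FPKM in WT 3-week.

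Further HIF pathway genes leaned the other way from the members at 3 weeks, but not at 5 days. At 5 days 14 of 24 lay below 0 (58.3%, against 53.6% of all compared genes), with a median of -0.030. Of 24 compared at 3 weeks, 19 lay above 0 and 5 below, where 55.8% of all compared genes lay below 0. At least 2-fold higher in KO were 4 (7.97% of all compared genes) and lower were 2 (8.19% of all), with a median of 0.22. The higher genes were Vegfa, a vessel growth factor, at 4.08 FPKM in KO 3-week and 0.542 FPKM in WT 3-week, Bhlhe40, a transcription repressor, at 124 FPKM in KO 3-week and 36.1 FPKM in WT 3-week, Ddit4, an inhibitor of mTORC1, at 202 FPKM in KO 3-week and 89.7 FPKM in WT 3-week, and Arnt2 at 3.82 FPKM in KO 3-week and 0.860 FPKM in WT 3-week. The lower ones were the mitochondrial genes Fam162a, at 53.1 FPKM in KO 3-week and 122 FPKM in WT 3-week, and Ak4, at 0.295 FPKM in KO 3-week and 1.87 FPKM in WT 3-week. Of the listed partners and regulators of HIF-1 alpha, Arnt, Vhl, Egln2 and Hif1an were less than 2-fold from WT. The subunit Arnt stood at 14.03 FPKM in KO 3-week and 12.8 FPKM in WT 3-week, the ubiquitin ligase gene Vhl at 8.68 FPKM in KO 3-week and 7.31 FPKM in WT 3-week, Egln2 at 33.8 FPKM in KO 3-week and 30.2 FPKM in WT 3-week and Hif1an at 9.70 FPKM in KO 3-week and 8.74 FPKM in WT 3-week. Epas1, which encodes HIF-2 alpha, stood at 60.3 FPKM in KO 3-week and 32.99 FPKM in WT 3-week.

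Of 21 compared regulators of glycolysis and growth, 4 were at least 2-fold higher in KO at 3 weeks (7.97% of all compared genes) and 2 lower (8.19% of all). At 5 days 0 were higher (2.77% of all) and 0 lower (0.820% of all). Myc stood at 20.3 FPKM in KO 5-day against 38.4 in WT 5-day, and at 14.7 FPKM in KO 3-week and 75.8 FPKM in WT 3-week. Irf4, which sustains glycolysis in activated T cells, stood at 5.09 FPKM in KO 3-week and 67.9 FPKM in WT 3-week. Txnip and Arrdc4, arrestin family genes that restrain glucose uptake, stood at 285 FPKM in KO 3-week and 95.3 FPKM in WT 3-week and at 10.1 FPKM in KO 3-week and 1.27 FPKM in WT 3-week. Mxd4, a MYC antagonist, stood at 96.8 FPKM in KO 3-week and 28.6 FPKM in WT 3-week, and Mycn at 3.47 FPKM in KO 3-week and 0.0705 FPKM in WT 3-week. Cell cycle genes were lower in KO beside the members. Of 20 listed, 10 were at least 2-fold lower in KO 3-week, where 8.19% of all compared genes were. At 3 weeks 20 lay below 0 (median -1.01), where 55.8% of all compared genes did. At 5 days 18 lay below 0 (median -0.23), where 53.6% of all did. The part of the regulators and of cell cycle activity in the members' levels was not tested.

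**Figure D4:**
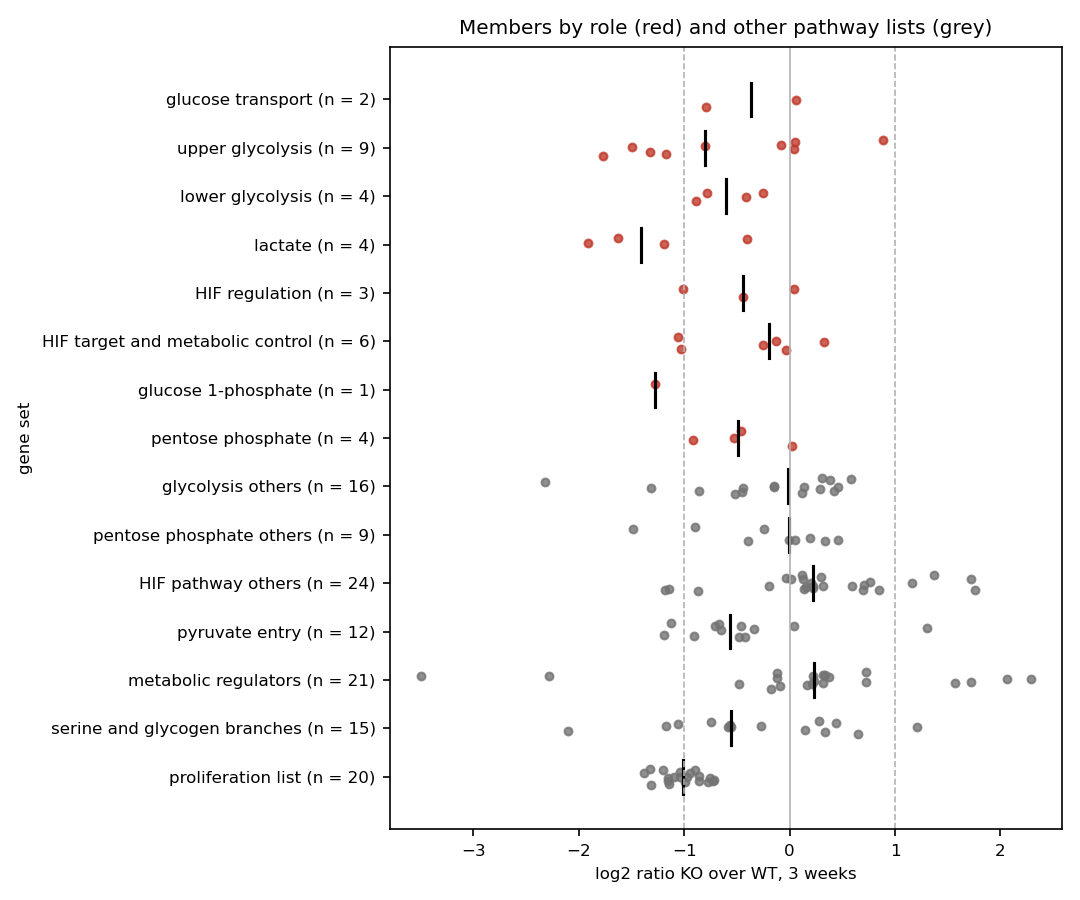
Log2 ratio of KO over WT at 3 weeks for each compared gene, by set, with members by role in red, other lists in grey, black ticks at the medians and dashed lines at 2-fold. The lactate members have the lowest median of the role groups with several genes (-1.41), the cell cycle list lies wholly below 0, and the further HIF list has a median above 0 (0.22).

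The 3-week comparison depends in part on how the libraries are scaled. With the values as deposited 1773 compared genes were at least 2-fold apart between KO and WT, 874 higher and 899 lower in KO, so that 49.3% were higher. The higher share was 58.5% with median-of-ratios scaling and 60.4% with upper-quartile scaling, which moved the median log2 ratio of all compared genes to 0.0090 and 0.032, against -0.084 as deposited. The members' median at 3 weeks was then -0.42 and -0.39. A ratio near 0, such as those of Gpi1 and Pfkfb3, has no settled sign.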

How the data were processed

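Per the labels' protocols, TRIzol-purified RNA went into a stranded TruSeq mRNA library kit. For each of 4 libraries, 1 per group, the authors deposited FPKM by gene symbol. The submitters' processing notes list mm10 along with Cufflinks 2.0.2, TopHat 1.3.2 and Bowtie 0.12.8, and the sources used here do not give the gene annotation, the read layout or the use of strand. Values of 240 symbols that were repeated within a file were summed, and 1 damaged by a spreadsheet was left out.

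Log2 ratios were taken after adding a pseudocount of 1, over genes with a mean of at least 1 FPKM. At least 2-fold was the rule for a ratio and 4-fold for the difference between contrasts. The members and all lists were chosen with earlier results of these data known. Named in the text were all members and, from each other pathway list, genes at least 2-fold apart between KO and WT (at most 6 per list and contrast, largest first), plus Pkm, Myc, Txnip, Vegfa, Vhl, Arnt, Epas1, Hif1an and Egln2 whatever their values.

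Depth was inferred from the steps between low FPKM values of genes with 1 transcript (GENCODE M21) of at least 500 bases, less 200. Of the values 58.95% to 61.6% then lay within 0.05 of a whole read. Depth and the 200 bases were chosen to make this share largest, so the 10% of evenly spread values is not its chance level. The largest share found in the same way was 28.8% to 31.3% with no bases taken off and 48.6% to 52.3% with 250. Counting intervals are exact Clopper-Pearson intervals at 95% on the implied reads, are approximate and cover counting error only. Near-identical copies were sought with BLAST+ 2.17.0. Promoters came from the RefSeq GRCm38.p6 table, and 40 of 45 member windows had their last 30 bases in a GENCODE M21 transcript of the same gene. The ratio calculation was tested on simulated data (Python 3.11.15, pandas 2.3.3, scipy 1.17.1). The alternatives tried were other pseudocounts, filters, scalings, fold rules and the handling of repeated symbols.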

Additional observations from a re-analysis of the deposited data

Results flagged for a closer look

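For 3 members KO lay on opposite sides of WT at the 2 times, with counting intervals that excluded WT at both, and the difference was not tested. Aldoc stood at 11.4 FPKM in KO 3-week against 5.71 in WT 3-week, and at 14.4 FPKM in KO 5-day against 17.4 in WT 5-day, so that the log2 ratio of KO over WT was 1.15 higher at 3 weeks than at 5 days. Egln3 stood at 13.5 FPKM in KO 3-week against 28.3 in WT 3-week, and at 45.5 FPKM in KO 5-day against 41.8 in WT 5-day, and its log2 ratio at 3 weeks minus that at 5 days was -1.13. Aldoa stood at 734 FPKM in KO 3-week against 713 in WT 3-week, and at 813 FPKM in KO 5-day against 861 in WT 5-day, with a difference of 0.13, far below the 2-fold rule. Aldoa, Aldoc and Egln3 each stay on opposite sides of WT at the 2 times under every pseudocount, filter and scaling tried.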

How the results depend on the processing

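No paired analysis was possible because each group had 1 library and no replicate numbers. Leaving out a replicate was not possible either. A pseudocount of 0.1 gave 642 compared genes past the rule at 5 days (394 as reported) and 398 for the difference (224). With a pseudocount of 5 the members lower in KO were 0 at 5 days and 7 at 3 weeks (11 as reported), where Ldhb (-0.85), Bnip3, Egln3 and Ankrd37 (-0.63) no longer reached 2-fold, and the compared genes past the rule were 178 at 5 days, 898 at 3 weeks, 468 and 276 for culture in KO and WT, and 132 for the difference. A mean filter of 5 FPKM gave 421 genes for culture in WT (643 as reported). The members' median at 3 weeks was -0.42 with median-of-ratios and -0.39 with upper-quartile scaling, against -0.52. Upper-quartile scaling also put 1 member, Aldoc, at least 2-fold higher at 3 weeks and turned the WT culture median to -0.010, against 0.02. With a 1.5-fold rule members past it were 3 lower at 5 days, and 1 higher and 16 lower at 3 weeks. By culture they were 1 higher and 10 lower in KO, and 3 higher and 3 lower in WT. At 2-fold, 1 was higher and 5 lower for the difference. The genes past 1.5-fold were not counted over all compared genes, so the counts at 1.5-fold do not set the members apart. Leaving out members with near-identical copies, an alternative chosen after seeing the data, left 0 members higher by culture in WT, since Bnip3 was the 1. The cause was not tested. Under the scalings Bnip3, Egln3 and Ankrd37 stood just short of 2-fold at 3 weeks (-0.89 to -0.97). The members' other counts and medians kept their direction, with counts within 1.5 times, 8 members lower at 3 weeks under both scalings among them. All compared genes lower at 3 weeks were then 711 with median-of-ratios and 680 with upper-quartile scaling, against 899 as deposited. Medians of all compared genes lie near 0 and changed sign under scaling, at 5 days from -0.021 as deposited to 0.00078 with median-of-ratios and 0.0093 with upper-quartile scaling, for culture in KO from -0.063 to 0.0068 with median-of-ratios, for culture in WT from 0.014 to -0.0080 and for the difference from -0.079 to 0.0072 with upper-quartile scaling. Genes past 2-fold by culture in KO were 477 higher and 482 lower as deposited, and 549 and 398 with median-of-ratios scaling. Depth limits Ldhb, Ankrd37 and Eno2 most.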
